A study of Mus musculus with 46 samples.

Results

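The RNA of 45 complement and coagulation genes was followed in mouse liver, with kidney as context, comparing castrated males with males and females that had a sham operation. The genes were chosen by symbol as the plasma and membrane components of the complement and clotting cascades. Of the 45 symbols, 44 had a row in the expression tables, which hold 17242 genes at 12 weeks and 18531 at 18 months. C4a had no row under its symbol and was not analysed here.

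All animals were wild-type C57BL/6 mice. Surgery, either castration or a sham procedure, was done at 8 weeks of age, and tissue was taken at 12 weeks or 18 months. The groups were sham males (ShamM), castrated males (CasM) and sham females (ShamF), with 3 libraries per sham group and tissue, and 6 castrated male libraries per tissue at 12 weeks and 5 at 18 months. All 12 groups share the operation at that age, and no unoperated animals were analysed here. The labels do not say whether liver and kidney libraries came from the same animals. Poly(A) RNA was sequenced as paired reads of 150 bp, and the study asked how castration relates to sex differences in healthy ageing.

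Complement is a set of plasma proteins that tags and lyses microbes. The classical, lectin and alternative routes each cleave C3 and C5, after which C6, C7, C8 and C9 assemble into the membrane attack complex, a pore in the target membrane. Coagulation is a second cascade of plasma proteases, which ends when thrombin turns fibrinogen into fibrin. Hepatocytes make most proteins of both cascades, while C1q and properdin come largely from macrophages and other myeloid cells. Serum complement activity of several mouse strains has long been known to be higher in males than in females.

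The values are the authors' group means, in FPKM (fragments scaled to transcript length and sequencing depth) at 12 weeks and in a normalized unit that is not named at 18 months. No spread between animals accompanies them, so the depth per library and the overlap of individual animals are unknown. "Rose", "fell" and "called" refer to an adjusted p under 0.05 in the authors' deposited tables, and a difference is that of log2(mean + 1). At 12 weeks those tables list each gene for just 1 of the 3 comparisons, and how it was picked is not given, so a gene listed elsewhere has means but no test. At 18 months every comparison was tested, and an implied standard error (SE) and 95% interval were derived from the fold and p of each gene. Marker genes followed the tissue labels. The 14 measured hepatocyte markers summed to between 33395 and 43537 FPKM in 12-week liver and between 192 and 361 in kidney, and the 10 proximal tubule markers to between 5181 and 32999 in kidney and 15.1 to 28.5 in liver. Alb was listed at 0 in all 12-week liver groups, so single means near 0 in that table may be failed estimates. In such bulk tissue fewer cells of a type and less RNA per cell cannot be told apart.

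Transcripts of 4 membrane attack complex genes fell in liver after castration at both ages. Just 23 of the 44 members had a castration test at 12 weeks, so the others could not be called at both. At 12 weeks 23 members were listed with a test for castration in liver, of which 6 rose and 9 fell, where 20.2% and 21.5% of all genes so tested rose and fell. At 18 months 1 of 44 members rose and 5 fell, against 1.08% and 1.01% of all genes tested. The members called lower at both ages were C6, C8a, C8b and C9, which are 44.4% of the 9 at 12 weeks and 80% of the 5 at 18 months. The share of all genes called lower at both ages was not computed. Mbl2 was the member called higher at both ages. The median castration difference of the 44 members was -0.02 at 12 weeks, equal at 2 decimals to the -0.02 of all expressed genes (mean of 1 or more in a compared group). At 18 months it was 0.02 from the group means, where the median of all such genes stood at 0.12, and -0.11 by the authors' fold, where all genes stood at -0.02, so the sign of this median depends on the scaling. All 18-month liver differences from means carry such a shift, of 0.12 in the castration comparison, 0.14 in the sex comparison and -0.03 between CasM and ShamF, and the authors' folds are therefore given beside them.

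At 18 months more liver members were called for sex than for castration, and the same held for all genes tested. For castration 1 of 44 members rose and 5 fell, against 1.08% and 1.01% of all genes tested. In 18-month liver 4 of 44 members were called higher in females and 8 lower, where 5.87% and 3.91% of all genes tested were called. At 12 weeks just 2 members were listed with a test for sex, and both were lower in females, but all genes listed for that comparison were called (47.1% higher and 52.9% lower), so this count says nothing about the members. Castrated males against females gave 1 member higher and 2 lower of 19 listed at 12 weeks, against 2.58% and 4.28% of all genes listed, and 2 higher and 0 lower of 44 at 18 months, against 0.53% and 0.595%. At an unadjusted p under 0.05 of the authors' DESeq2 test, 3 members (Mbl1, Cfd and C8a) were higher in castrated males in that last comparison and 5 (C1qa, C1qb, C1qc, Masp1 and F8) were lower, against 4.15% and 5.74% of all genes tested. The castration and sex comparisons share the same sham males, so a low or high sham male mean enters both. Since the 12-week tests are partial, the members were also counted by a 2-fold limit on mean + 1 without a test. By it 0 members were higher and 6 lower after castration at 12 weeks, against 1.39% and 1.66% of all genes, and 0 and 5 at 18 months, against 1.38% and 0.529%. In females 4 were higher and 7 lower at 12 weeks, against 1.86% and 1.37%, and 4 and 4 at 18 months, against 3.26% and 0.777%. Between CasM and ShamF the counts were 0 and 1 at 12 weeks, against 0.238% and 0.383%, and 1 and 3 at 18 months, against 0.464% and 0.896%.

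**Figure D1:**
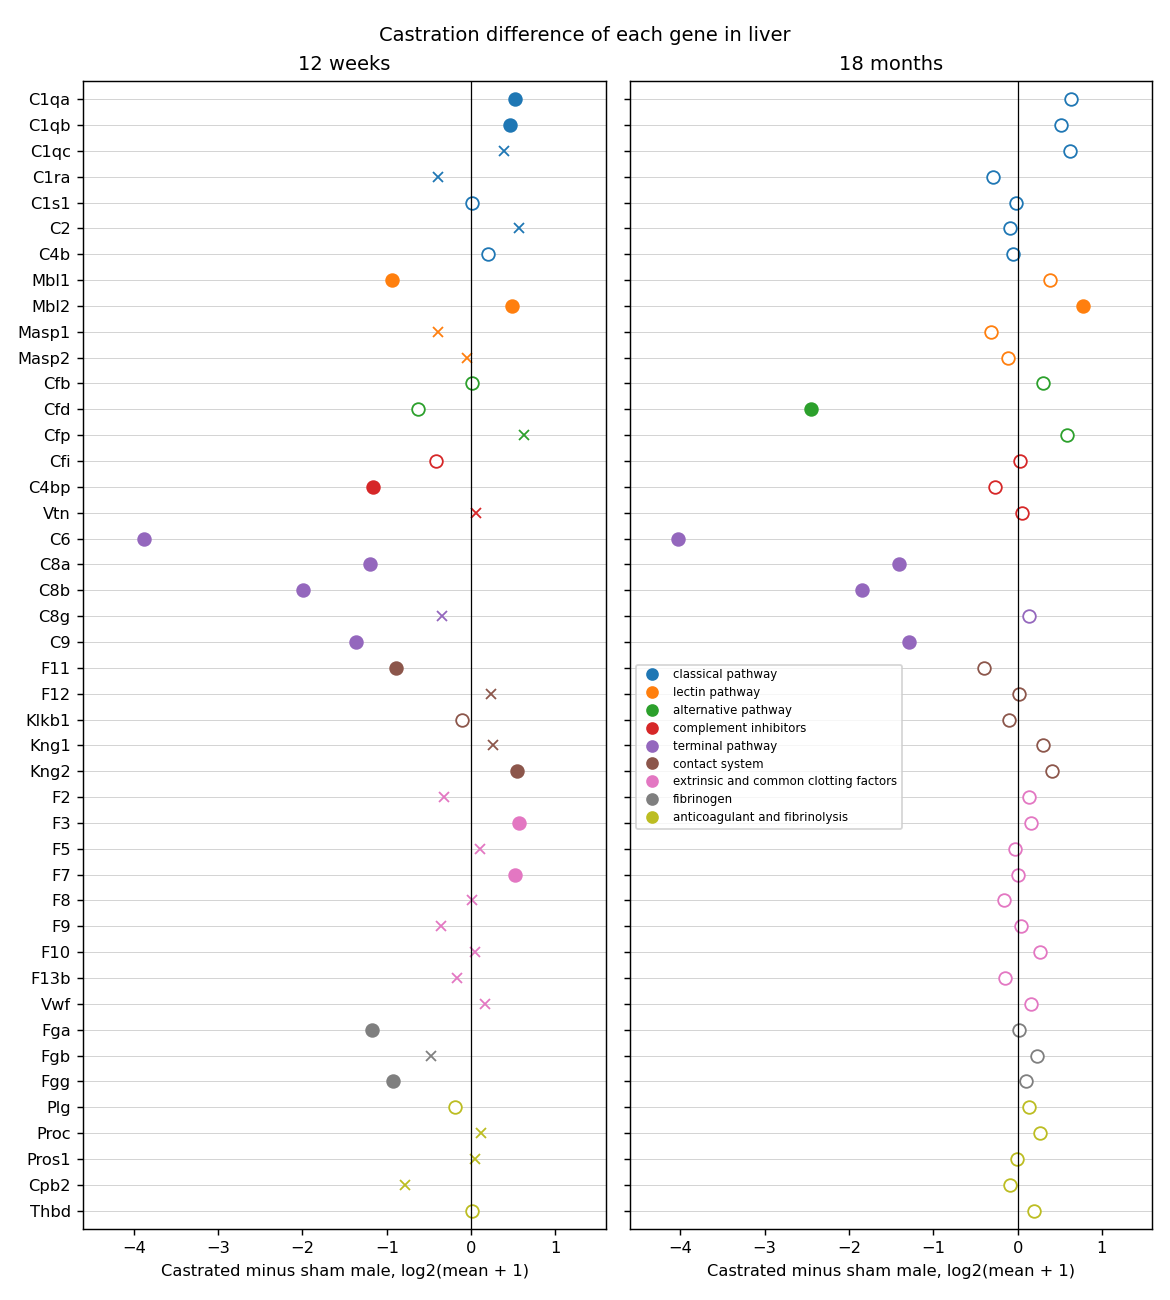
Difference of log2(mean + 1) in liver, castrated males minus sham males, for each of the 44 genes by role at 12 weeks (left) and 18 months (right). Filled points are called by the authors' adjusted p, open points were tested and not called, and crosses were not listed for this comparison; C6, C8a, C8b and C9 are filled and negative in both panels.

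In the terminal pathway C6, C8a, C8b and C9 fell at both ages. At 12 weeks these were the 4 of its 5 genes tested for castration, where 21.5% of all genes tested fell. At 18 months all 5 were tested and 4 fell, against 1.01% of all genes tested. C6, the first protein to join C5b in the pore, had a 12-week liver mean of 125.7 FPKM in ShamM, 7.58 in CasM and 4.68 in ShamF. The sham male mean was thus 16.6 times that of castrated males and 26.9 times that of females. At 18 months its means were 99.4, 5.14 and 4.18, a drop of the same order. The authors' deposited table gave C6 a log2 fold of -4.41 after castration (implied SE 0.35, adjusted p 1.56e-33) and -4.79 for females (implied SE 0.27, adjusted p 1.55e-65). At 12 weeks its castration adjusted p of 0.000856 in the authors' deposited table is the smallest that table gives for liver.

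C8a and C8b encode the alpha and beta chains of C8, the subunit that first inserts into the membrane. C8a averaged 443 FPKM in ShamM, 193 in CasM and 120.0 in ShamF at 12 weeks, and 231, 86.6 and 45.4 at 18 months. C8b averaged 151, 37.1 and 39.5 FPKM at 12 weeks, and 131, 35.7 and 35.6 at 18 months. For C8b the castrated male and female means lay together, and for C8a the castrated males lay between the other groups. At 18 months the authors' deposited table gave castration folds of -1.62 for C8a (implied SE 0.32, adjusted p 3.37e-05) and -2.002 for C8b (implied SE 0.37, adjusted p 7.01e-06). The gap between castrated males and females in C8a had a fold of 0.97 (95% interval 0.26 to 1.68) and an adjusted p of 0.222 in the authors' deposited table, so it was not called.

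C9, which polymerizes to line the pore, averaged 396 FPKM in ShamM, 153 in CasM and 138 in ShamF at 12 weeks. At 18 months the C9 means were 227, 92.2 and 115. Its 18-month castration fold was -1.42 (implied SE 0.34, adjusted p 0.00291) in the authors' deposited table. C8g, the lipocalin chain of C8, encoded on chromosome 2, was not called in liver, with 443, 349.9 and 418 FPKM at 12 weeks and 428, 468.5 and 382 at 18 months. At 12 weeks C8g was listed only for castrated males against females, so its castration difference has no test at that age. Its castration fold at 18 months was -0.01 (95% interval -0.40 to 0.38) in the authors' deposited table, an interval that leaves out the folds of C6, C8a, C8b and C9. Summed over C6, C8a, C8b and C9, liver means were 1116 FPKM in ShamM, 391 in CasM and 302 in ShamF at 12 weeks.

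**Figure D2:**
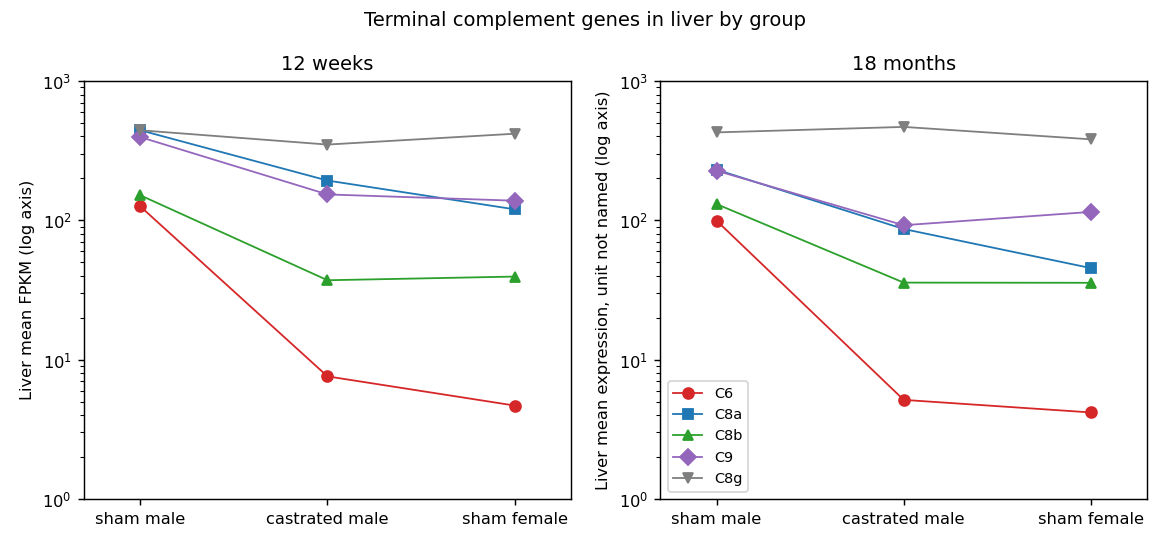
Liver group means of C6, C8a, C8b, C9 and C8g on a log axis in sham males, castrated males and sham females, in FPKM at 12 weeks (left) and in the unnamed 18-month unit (right). Each point is 1 group mean without a spread; C6 drops from 125.7 to 7.58 FPKM after castration at 12 weeks while C8g stays between 349.9 and 443.

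C6 and C9 share a chromosome in the mm10 genome, as do C8a and C8b. C6 (ENSMUSG00000022181.16) spans chromosome 15, 4727175 to 4814967 on the plus strand, and C9 (ENSMUSG00000022149.17) spans 6445327 to 6498751 of the same chromosome. C7, which lies between them at 4988762 to 5063740 and is also part of the pore, was almost silent in liver, with means from 0.08 to 0.13 FPKM at 12 weeks. C8a (ENSMUSG00000035031.15, chromosome 4, 104815679 to 104876398, minus strand) and C8b (ENSMUSG00000029656.13, 104766317 to 104804548, plus strand) are neighbours. The sequences just before the starts of the 4 falling terminal genes are shown because these genes moved together, and those of the fibrinogen genes Fga and Fgb because Fga also fell at 12 weeks. They come from RefSeq on GRCm38.p6, up to 250 bases before the start in transcript direction, cut where the GENCODE vM21 gene begins earlier, and capitals mark 2 motifs searched on both strands. The first is TTCNNNGAA, the form bound by STAT factors, and the second is TTGCNNAA, a partial form of the C/EBP element. C6 lies at chr15:4726960-4727174 (+), C8a at chr4:104876399-104876648 (-), C8b at chr4:104766067-104766316 (+), C9 at chr15:6445096-6445326 (+), Fga at chr3:83025903-83026075 (+) and Fgb at chr3:83049864-83050113 (-).
C6: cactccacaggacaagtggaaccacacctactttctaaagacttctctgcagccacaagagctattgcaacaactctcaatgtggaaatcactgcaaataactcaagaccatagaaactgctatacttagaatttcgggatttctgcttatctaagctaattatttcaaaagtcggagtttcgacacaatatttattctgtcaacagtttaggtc
C8a: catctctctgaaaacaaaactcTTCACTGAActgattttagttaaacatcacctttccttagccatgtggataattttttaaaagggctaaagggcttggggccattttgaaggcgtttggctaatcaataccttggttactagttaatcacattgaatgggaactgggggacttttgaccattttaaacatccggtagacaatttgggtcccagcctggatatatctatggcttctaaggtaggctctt
C8b: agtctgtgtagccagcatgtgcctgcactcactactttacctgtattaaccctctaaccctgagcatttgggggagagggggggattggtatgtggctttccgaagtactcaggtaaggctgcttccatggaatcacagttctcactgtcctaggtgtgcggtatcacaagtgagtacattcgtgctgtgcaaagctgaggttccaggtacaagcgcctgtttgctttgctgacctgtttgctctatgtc
C9: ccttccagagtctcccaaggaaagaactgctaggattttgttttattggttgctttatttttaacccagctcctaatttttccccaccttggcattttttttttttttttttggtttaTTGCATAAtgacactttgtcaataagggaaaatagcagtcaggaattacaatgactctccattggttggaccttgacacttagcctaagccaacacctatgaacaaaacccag
Fga: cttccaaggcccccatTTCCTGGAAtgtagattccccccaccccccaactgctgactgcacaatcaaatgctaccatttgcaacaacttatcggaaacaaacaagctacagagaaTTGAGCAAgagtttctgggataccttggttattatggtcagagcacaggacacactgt
Fgb: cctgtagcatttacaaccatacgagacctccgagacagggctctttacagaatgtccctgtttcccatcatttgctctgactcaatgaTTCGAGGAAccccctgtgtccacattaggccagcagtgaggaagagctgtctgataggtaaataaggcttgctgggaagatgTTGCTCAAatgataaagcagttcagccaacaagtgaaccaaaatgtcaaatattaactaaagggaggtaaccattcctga
No match of either motif fell in the C6 and C8b windows. C8a held TTCNNNGAA at -228 to -220 from its start, and C9 held TTGCNNAA at -132 to -125. Both Fga (-234 to -226 and -135 to -128) and Fgb (-162 to -154 and -80 to -73) held 1 match of each, and no 2 matches overlapped. Over the 250 bases before each start, TTCNNNGAA occurred in 6 of the 33 members with a RefSeq entry (18.2%) and in 2306 of 32851 promoters (7.02%). TTGCNNAA occurred in 8 members (24.2%) and 3142 promoters (9.56%). Members were counted per gene, with a match in any of their entries, and promoters per entry. The shares are therefore in unlike units and cannot be compared directly. A match describes letters in a window, and nothing was measured at these sites.

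The starters of the classical route divided into macrophage and hepatocyte products. C1qa, C1qb and C1qc encode the 3 chains of C1q, which binds antibody on a target. C1qa had 12-week liver means of 14.7 FPKM in ShamM, 21.6 in CasM and 44.9 in ShamF. C1qb had 10.8, 15.3 and 31.0 FPKM. C1qc had 10.97, 14.7 and 27.8 FPKM, the same order of groups. At 12 weeks C1qa and C1qb rose after castration, with adjusted p of 0.0094 and 0.0301 in the authors' deposited table, and C1qc, listed only against females, was lower in castrated males (adjusted p 0.000856). At 18 months the 3 chains summed to 67.2 in ShamM, 103 in CasM and 286 in ShamF. Females exceeded sham males in C1qa by a fold of 1.75 (implied SE 0.50, adjusted p 0.00912) and in C1qb by 1.85 (implied SE 0.52, adjusted p 0.00756), in the authors' deposited table. C1qc had a fold of 1.90 with an adjusted p of 0.112 in the authors' deposited table and was not called. After castration at 18 months the folds were between 0.36 and 0.46 with adjusted p from 0.912 to 0.956 in the authors' deposited table, so no chain was called.

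Properdin, encoded by Cfp, stabilizes the alternative convertase and followed the C1q chains in its group order. Its liver means were 8.04 FPKM in ShamM, 12.9 in CasM and 24.6 in ShamF at 12 weeks, and 7.08, 11.1 and 21.3 at 18 months. Its 18-month fold in females was 1.35 (implied SE 0.44, adjusted p 0.0297) in the authors' deposited table. Macrophage markers moved in the same comparisons. Of 14 Kupffer cell and macrophage markers, 7 were higher and 0 lower in 18-month female liver, against 5.87% and 3.91% of all genes tested. Among the higher were Clec4f (49.3 against 15.4 in sham males) and Vsig4 (27.7 against 7.7). The summed means of the 14 were 149 in ShamM, 215 in CasM and 521 in ShamF. After castration at 18 months 0 of the 14 were called, against 1.08% higher and 1.01% lower of all genes. At an unadjusted p under 0.05 of the authors' DESeq2 test it was also 0, against 5.08% and 3.76%. At 12 weeks the sums were 136, 179 and 271 FPKM. Of the 3 markers then listed for castration 2 were called higher, against 20.2% of all genes so tested. Endothelial and stellate markers were also higher in 18-month females, in 8 of 13 and 8 of 10, against the same 5.87% of all genes. The part of these cell types in the C1q and properdin values was not tested.

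**Figure D3:**
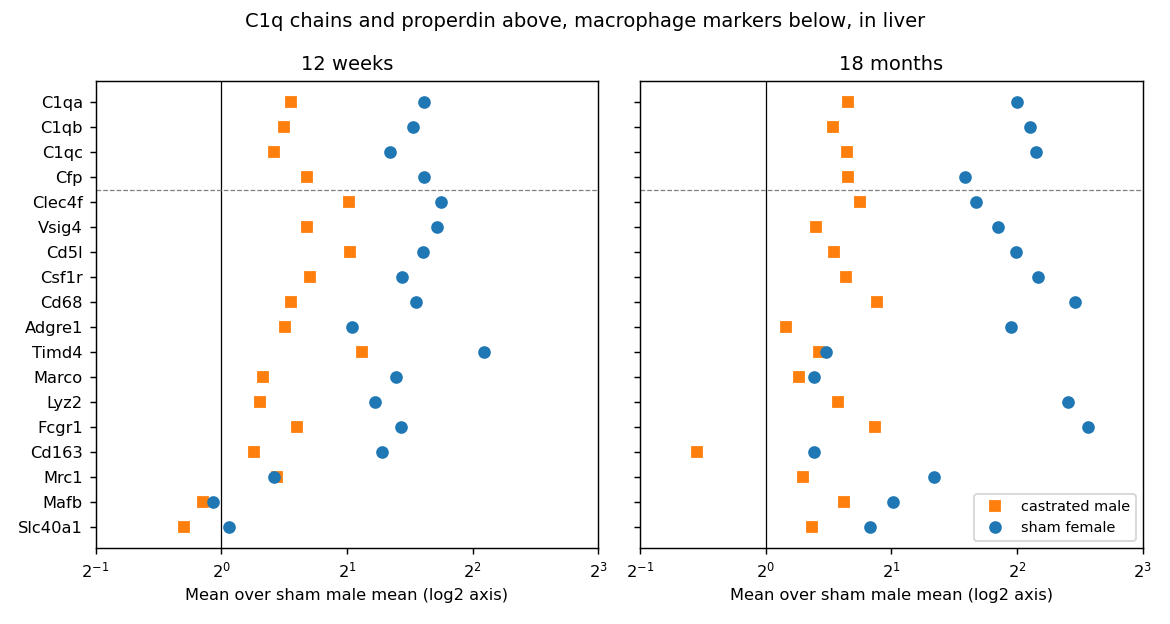
Ratio of the castrated male mean (squares) and the sham female mean (circles) to the sham male mean in liver, on a log2 axis, for the C1q chains and Cfp (above the dashed line) and 14 macrophage markers (below it). At both ages the circles of C1qa, C1qb, C1qc and Cfp lie right of their squares, as do those of the markers apart from Mrc1 at 12 weeks.

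The hepatocyte part of the classical route had few calls. C4b, the C4 protein that forms the classical convertase with C2, averaged 394 FPKM in ShamM, 453 in CasM and 509 in ShamF at 12 weeks, and 359, 346 and 411 at 18 months, with no call in liver. C1ra, a protease bound to C1q, was lower in 12-week females (64.4 against 92.4 FPKM in sham males, adjusted p 0.0307 in the authors' deposited table). All genes listed for that comparison were called, so the call does not set C1ra apart. C1s1, the protease that C1r activates, was lower in 18-month females by a fold of -0.33 (implied SE 0.10, adjusted p 0.0205) in the authors' deposited table, from means of 251 and 231. C2, the protease of that convertase, averaged 54.1 FPKM in ShamM, 80.7 in CasM and 73.6 in ShamF at 12 weeks, where it was listed only for castrated males against females and not called, so its castration and sex differences have no test at that age. At 18 months its means were 44.1, 41.3 and 54.2, with no call. Reads from copied genes limit these values, since 8.26% of 150-base windows of the C4b transcript (432 of 5230) occur exactly in C4a and 26.3% of those of C1ra in C1rb.

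In the lectin route the mannose-binding lectins, which recognise microbial sugars, moved apart. Mbl2 averaged 426 FPKM in ShamM, 599.8 in CasM and 679.6 in ShamF at 12 weeks, and 369, 634 and 665.5 at 18 months. Its castration rise had adjusted p of 0.0264 at 12 weeks and 0.0486 at 18 months in the authors' deposited tables, with a fold of 0.64 (implied SE 0.20) at 18 months. Mbl1 fell after castration at 12 weeks, from 303 to 158 FPKM, and ShamF had 191. At 18 months the Mbl1 means were 215 in ShamM, 281 in CasM and 171 in ShamF, so the castrated group was the highest. Mbl1 was then lower in females than in sham males (fold -0.62, implied SE 0.18, adjusted p 0.0109) and higher in castrated males than in females (fold 0.75, implied SE 0.20, adjusted p 0.029), in the authors' deposited table. The lectin-bound proteases were not called in liver, with Masp1 between 3.60 and 5.03 FPKM and Masp2 between 148 and 156 at 12 weeks. At that age they were listed only for castrated males against females, so castration and sex have no test.

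In the alternative route Cfd was nearly absent from female liver. Cfd encodes factor D, the protease that cleaves factor B, and adipocytes are its best known source. In 18-month liver its means were 24.1 in ShamM, 3.59 in CasM and 0.09 in ShamF. The castration fold was -2.84 (implied SE 0.44, adjusted p 2.07e-08) in the authors' deposited table, and the 3 groups were each called apart, with adjusted p of 1.98e-14 for sex and 0.000238 between CasM and ShamF. At 12 weeks the Cfd means were 2.20, 1.06 and 0.04 FPKM, in the same order of groups, and its castration adjusted p of 0.0633 in the authors' deposited table missed the threshold. Of 10 adipocyte markers in 18-month liver, 7 were tested for sex, and 2 of them (Cidec and Car3) were lower in females and 0 higher. Of all genes tested, 3.91% were lower and 5.87% higher. For castration 9 were tested and 0 called by the authors' DESeq2 test, also at an unadjusted p under 0.05. The shares of all genes were 1.08% higher and 1.01% lower, and 5.08% and 3.76% unadjusted. The 10 markers summed to 3211 in ShamM, 2676 in CasM and 1053 in ShamF. Among them Adipoq, Plin1 and Lep had means of at most 0.144 in every liver group at both ages. The lipid droplet gene Cidec had 18-month means of 21.3 in ShamM, 10.3 in CasM and 1.33 in ShamF. The part of adipocytes in the Cfd values was not tested. Cfb, the factor B that factor D cleaves, was not called in liver, with 907, 910.5 and 1058 FPKM at 12 weeks and 569, 699 and 705 at 18 months.

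Among the inhibitors, C4bp, the binding protein that disables C4b, fell after castration at 12 weeks from 250.2 to 111 FPKM, and ShamF had 124. At 18 months its means were 381, 318 and 302, and it was lower in females (fold -0.56, implied SE 0.14, adjusted p 0.00267) but not called after castration (fold -0.40, 95% interval -0.999 to 0.194), in the authors' deposited table. Vtn, encoding vitronectin, which blocks pore insertion, kept means between 2495 and 2800 FPKM at 12 weeks and was not called in liver. At that age Vtn was listed only for castrated males against females, so castration and sex have no test. Cfi, the protease that inactivates C3b and C4b, was not called in liver, with a 12-week castration adjusted p of 0.0736 in the authors' deposited table.

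In the contact system, which starts clotting on surfaces, F11 and Kng2 were called. F11, the factor XI zymogen, fell after castration at 12 weeks from 41.0 to 21.6 FPKM, and ShamF had 31.9. At 18 months its means were 30.6, 22.9 and 27.3, with a castration fold of -0.55 (95% interval -0.95 to -0.15) and adjusted p of 0.203 in the authors' deposited table. Kng2, a copy of the kininogen gene, rose at 12 weeks from 191 to 279 FPKM, with 241 in females, and was not called at 18 months. Kng1 was not called and had the highest means of the system, at 1358, 1630 and 1645 FPKM. F12 was likewise not called in liver. At 12 weeks Kng1 and F12 were listed only for castrated males against females, so castration and sex have no test there. Klkb1, encoding plasma prekallikrein, was listed between 0.05 and 0.14 FPKM at 12 weeks but between 62.4 and 70.3 at 18 months. The ages were processed separately and are in different units, so age and processing cannot be told apart in that gap. In 12-week kidney Klkb1 was listed at 0.01, which stands for 0, in every group. Females against sham males still had an adjusted p of 0.0128 there in the authors' deposited table. As with Alb, its 12-week means may therefore be failed estimates.

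Of the 9 other clotting genes, outside the contact system, fibrinogen and the anticoagulants, 2 were called in liver, both after castration at 12 weeks. Only these 2 were listed with that test, in which 20.2% of all genes so tested rose. F7, which starts clotting with tissue factor, rose from 41.8 to 60.3 FPKM, and ShamF had 64.0. F3, tissue factor itself, rose from 2.53 to 4.22 FPKM, and ShamF had 5.40. Neither was called at 18 months, where their castration folds were -0.13 (95% interval -0.67 to 0.41) for F7 and 0.06 (-0.67 to 0.79) for F3 in the authors' deposited table. The prothrombin gene F2 had the highest means of the group, 707, 567 and 599.8 FPKM at 12 weeks and 1036, 1138 and 1167 at 18 months, with no call. F8, which endothelial cells make, had the lowest at 12 weeks, 0.63 to 0.65 FPKM. F5, F9, F10, F13b and Vwf were not called in liver. At 12 weeks these genes, F2 and F8 were listed only for castrated males against females. Their castration and sex differences therefore have no test at that age.

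Of the 3 fibrinogen genes Fga and Fgg fell after castration at 12 weeks, and none was called in liver at 18 months; the difference between the ages was not tested. Fga, the alpha chain, fell after castration from 1725 to 765 FPKM, and ShamF had 736. Fgg, the gamma chain, fell from 2027 to 1062 FPKM, and ShamF had 1057. Fgb, the beta chain, had 1153, 832 and 818 FPKM and was listed only for castrated males against females, where it was not called (adjusted p 0.98 in the authors' deposited table). The castrated male mean exceeded the female mean by 0.06 in Fga, 0.02 in Fgb and 0.01 in Fgg on the log2(mean + 1) scale. At 18 months Fga had means of 1252 in ShamM, 1267 in CasM and 1551 in ShamF. The castration folds were -0.08 (95% interval -0.89 to 0.73) for Fga, 0.08 (-0.40 to 0.56) for Fgb and -0.03 (-0.70 to 0.64) for Fgg in the authors' deposited table. The 3 chains together summed to 4906 FPKM in 12-week sham males against 2659 and 2610 in the other groups, and at 18 months to 5280 against 5785 and 6569.

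The anticoagulant and fibrinolytic genes had 2 liver calls. Cpb2, a carboxypeptidase that protects fibrin from plasmin, was lower in 12-week females (156 against 241 FPKM in sham males, adjusted p 0.0094 in the authors' deposited table), with 140.0 in castrated males. All genes listed for that comparison were called (47.1% higher and 52.9% lower), so the call does not set Cpb2 apart. Pros1, the protein S cofactor, was higher in 12-week castrated males than in females (19.4 against 14.1 FPKM, adjusted p 0.0307 in the authors' deposited table). Of all genes listed for that comparison 2.58% were higher. Plg, encoding plasminogen, averaged 845, 738 and 792 FPKM at 12 weeks and was not called, nor was Proc, encoding protein C, at 365, 397 and 401 FPKM. At 12 weeks Plg was listed only for castration and Proc only for castrated males against females. Thbd, encoding thrombomodulin, was not called in liver and had 12-week means of 0.42 to 0.61 FPKM.

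Of the other genes of both cascades, 44 of 46 listed had a row. In liver at 12 weeks 12 were listed with a test for castration, of which 1 rose and 3 fell, against the 20.2% and 21.5% of all genes so tested. At 18 months 0 rose and 2 fell of 44 by the authors' DESeq2 test, against 1.08% and 1.01% of all genes. At an unadjusted p under 0.05 of that test 2 were higher and 5 lower, against 5.08% and 3.76%. F2r, the thrombin receptor, fell at both ages, from 13.6 to 3.36 FPKM and from 11.1 to 3.40. Hc, the gene of C5, from which the pore starts, fell at 18 months from 169 to 119 (adjusted p 0.0461 in the authors' deposited table). In 18-month females 8 of 44 were higher and 3 lower, against 5.87% and 3.91% of all genes, and C3, the protein all routes cleave, was among the higher, at 2751 against 1551 in sham males. The 3 lower were Hc, F2r and C1rl.

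In kidney most members had lower means than in liver, and some were called in both tissues. Mbl2 rose after castration at 18 months in kidney too, from 0.67 to 2.37 (fold 1.70, implied SE 0.47, adjusted p 0.00249 in the authors' deposited table), and Mbl1 and C9 were lower in 18-month females in both tissues. In sham males liver exceeded kidney in 40 of 44 members at 12 weeks, all but C1qb, F3, F8 and Thbd, and 21 members reached 1 FPKM in kidney against 41 in liver. At 12 weeks 3 of 8 tested members rose after castration and 2 fell, where 32.8% and 37.9% of all genes tested rose and fell. At 18 months 13 of 44 rose and 5 fell, against 9.56% and 13.1% of all genes. For sex, 5 members were higher in females and 2 lower of 10 tested at 12 weeks, against 44.4% and 42.1%, and 6 higher and 8 lower of 44 at 18 months, against 7.91% and 8.9%. Klkb1 passed the 12-week threshold (adjusted p 0.0128 in the authors' deposited table) but is in neither count. Its female and sham male means were both 0.01, which stands for 0, so it had no direction. Between CasM and ShamF the counts were 1 and 1 of 10 at 12 weeks, against 4.77% and 2.93%, and 7 and 2 of 44 at 18 months, against 2.73% and 4.41%. By the 2-fold limit without a test, castration gave 2 higher and 1 lower at 12 weeks, against 1.8% and 2.6% of all genes, and 3 and 0 at 18 months, against 0.955% and 0.793%. Sex gave 4 and 1 at 12 weeks, against 3.39% and 3.62%, and 3 and 3 at 18 months, against 1.6% and 1.1%. CasM against ShamF gave 0 and 1 at 12 weeks, against 0.307% and 0.389%, and 4 and 1 at 18 months, against 0.626% in each direction.

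C8a reversed its sex order in kidney. Its kidney means were 12.5 FPKM in ShamM, 8.48 in CasM and 47.3 in ShamF at 12 weeks, and 6.16, 6.12 and 29.8 at 18 months. Females were called higher at both ages, with an 18-month fold of 2.17 (implied SE 0.53, adjusted p 0.000544) in the authors' deposited table. Its partner C8b was at or below 0.09 FPKM in 12-week kidney. C8g was lower in 18-month female kidney, at 7.68 against 22.8 in sham males.

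Proc, Kng2 and Cfb were the 3 members with a sham male kidney mean of at least 100 at 12 weeks, and all 3 were called. Proc, not called in liver, fell in kidney after castration from 115 to 63.1 FPKM at 12 weeks and from 139 to 76.5 at 18 months, with 62.5 and 73.0 in females. Kng2 averaged 169 FPKM in ShamM, 249 in CasM and 309 in ShamF at 12 weeks, and 198, 368 and 503 at 18 months. Its 18-month castration fold in kidney was 0.74 (implied SE 0.06, adjusted p 8.81e-30) in the authors' deposited table. Cfi rose after castration at both ages, from 2.53 to 3.59 FPKM and from 4.84 to 12.0. Cfp rose from 4.84 to 12.6 FPKM and from 3.20 to 5.87. Cfb was lower in females at both ages, at 218 against 361 FPKM and 195 against 305.

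The 3 fibrinogen genes rose in 18-month kidney after castration. Fga rose from 9.49 to 15.7, Fgb from 2.08 to 7.39 and Fgg from 9.80 to 16.0. Their castration effects did not differ from those in liver past the threshold when the difference of the authors' folds was tested (adjusted p 0.669 for Fga, 0.144 for Fgb and 0.643 for Fgg). Hepatocyte markers in the same kidneys had a median difference of 0.66 on the log2(mean + 1) scale, beside 0.67 for the 3 fibrinogen genes and 0.13 for all expressed genes. Of these 14 markers 1 rose and 2 fell by the authors' adjusted p, and 3 were higher and 1 lower by the 2-fold limit. Their sums were 537 in sham males and 566 in castrated males, and Alb had means of 21.7 and 65.1 without a call (adjusted p 0.242 in the authors' deposited table). Whether RNA of liver origin contributes to these kidney values was not tested. Low-level members such as C9 and Plg were also called lower in female kidney at 18 months. Both were under 1 in every 18-month kidney group apart from Plg in castrated males at 1.07. Of the 14 hepatocyte markers 7 were called lower there as well, against 8.9% of all genes tested.

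At 18 months the effects in the 2 tissues were compared directly, by a test added after the data were seen. The difference of the authors' folds was divided by the combined implied SE. Adjustment was over every gene with a mean of 1 or more in at least 1 compared group of each tissue. The tissues were taken as independent, although they may come from the same animals. For castration 5 of 31 members differed between liver and kidney, against 4.03% of 10464 genes, and for sex 11 of 30 members, against 10.3% of 10653 genes. A difference that missed the threshold does not show that the tissues responded alike. Cfd had the widest castration gap, with -2.84 in liver and 2.77 in kidney, although its kidney means were just 0.22 in sham males and 1.25 in castrated males. In kidney Cfd thus passed the limit on means only through castrated males, the group where it was high. Cpb2 passed it for sex only through females, with kidney means of 0.65 in sham males and 3.40 in females. Both are in the counts above, and their entry depended on the group that was high. C8a had the widest sex gap, with folds of -2.59 in liver and 2.17 in kidney (adjusted p of the difference 3.53e-12).

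**Figure D4:**
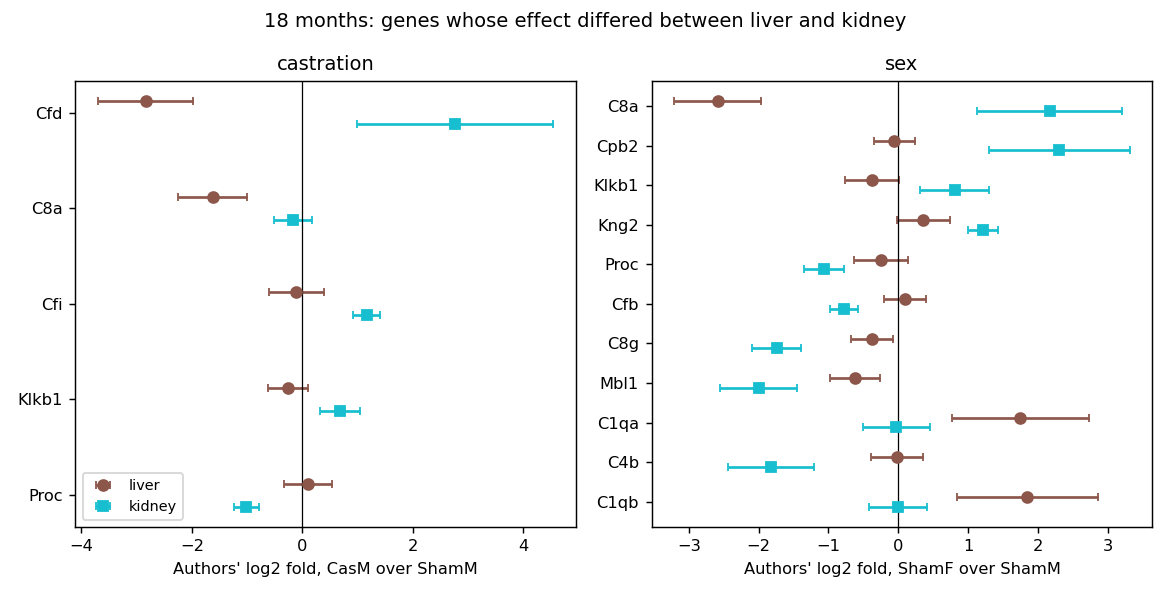
The authors' log2 fold at 18 months with its implied 95% interval in liver (circles) and kidney (squares), for castrated over sham males (left, 5 genes) and sham females over sham males (right, 11 genes). Genes shown are those whose effect differed between the tissues. Both intervals of Cfd and, for sex, of C8a lie wholly on opposite sides of 0. Other genes also have folds of opposite sign, such as Cfi, Klkb1 and Proc for castration, but with a liver interval that includes 0.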

How the data were processed

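Kidney and liver RNA of 46 libraries in 12 groups was analysed from the authors' group means. The build was mm10, and the tools included Cufflinks, HISAT2 and SAMtools, per the submitters' processing notes; the sources used here give no versions or settings. The 12-week values were deposited as mean FPKM per group, with 0.01 added to every mean, so that 0.01 stands for 0. The 18-month values were deposited as a normalized expression signal per group in an unnamed unit. For 12 weeks the authors' test tables have, per the file headers, a score (test statistic) with its p-value before and after adjustment, laid out as Cuffdiff does, with 1 comparison per gene and a smallest p of 5e-05. The authors' 18-month table gives log2 folds and DESeq2 p-values, raw and adjusted, for every comparison, per the file headers. Its sign was turned to match the group means.

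From these, differences of log2(mean + 1) were computed for castration (CasM minus ShamM), sex (ShamF minus ShamM) and CasM minus ShamF. A call is the authors' adjusted p under 0.05, with the direction taken from the means at 12 weeks. A gene whose compared means were equal at 12 weeks had no direction and was not counted as called. This replaced planned tests per library, since the files used here hold means. At 18 months the size of a fold over the normal quantile that its p corresponds to gave the implied SE, and the 95% interval follows from it. The difference between tissues was tested as a normal statistic and was tried on simulated data first. Benjamini-Hochberg adjustment was over all genes with a mean of 1 or more in at least 1 compared group of each tissue. Where libraries of a group are not separate animals, p-values measure only technical spread. Members, lists and tests were chosen with earlier results of these data known. The rule for named genes gives full values to members differing by 1 or more in liver, called at both ages, or highest or lowest in their role. Gene positions are from GENCODE vM21, promoters from RefSeq (33 of 45 members matched). Python 3.11.15, pandas 2.3.3, scipy 1.17.1 and statsmodels 0.14.6 were used. Stricter thresholds, other pseudocounts and other scalings were tried as alternatives.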

Additional observations from a re-analysis of the deposited data

Results flagged for a closer look

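At 18 months, 16 effects of members differed between liver and kidney by the test of the difference itself. Values are liver minus kidney on the authors' log2 fold scale, with the folds in the 2 tissues taken as independent.

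For castration, the largest gap was that of Cfd, at -5.60, where the liver fold was -2.84 and the kidney fold 2.77. Cfd entered this test in kidney only through castrated males, with a mean of 1.25 against 0.22 in sham males. C8a differed by -1.45, Cfi by -1.28 and Klkb1 by -0.94. Proc went the other way, at 1.12, since it fell in kidney (fold -1.01, SE 0.11) and not in liver (0.10, SE 0.22).

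For sex, C8a differed by -4.76, with a fold of -2.59 in liver and 2.17 in kidney. Cpb2 differed by -2.37, Klkb1 by -1.18 and Kng2 by -0.86, all with the higher female fold in kidney. Cpb2 entered this test in kidney only through females, with a mean of 3.40 against 0.65 in sham males. C1qb differed by 1.85, C4b by 1.80 and C1qa by 1.78, with the higher female fold in liver. For C4b the liver fold was -0.02 and the kidney fold -1.82, from kidney means of 5.94 in sham males and 1.87 in females. Mbl1 differed by 1.38, C8g by 1.36, Cfb by 0.87 and Proc by 0.81.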

How the results depend on the processing

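Alternative values (another pseudocount, centring on all genes, the authors' folds) were computed only for members already called, and all 251 kept their direction. Another pseudocount cannot turn the direction of a difference, so that part could not have come out otherwise. Counts depended on the threshold. With an adjusted p under 0.01, members higher after castration in liver were 3 at 12 weeks and 0 at 18 months, and in kidney those lower were 1 and 3. Females then had 1 lower member in 12-week liver, 2 higher in 18-month liver, 1 lower in 12-week kidney and 3 higher in 18-month kidney. Castrated males exceeded females in 0 members in 12-week liver, 1 in 18-month liver and 4 in 18-month kidney. With a 1.5-fold limit on mean + 1 added to the adjusted p under 0.05, castration left 0 higher in 12-week liver, 1 higher and 1 lower in 12-week kidney and 2 lower in 18-month kidney. For sex it left 1 lower in 12-week liver and 5 lower in 18-month liver. For castrated males against females it left 0 higher in 12-week liver, and 4 higher and 1 lower in 18-month kidney. By a 2-fold limit on mean + 1 with no test, castration gave 0 higher in liver at both ages, 1 lower in 12-week kidney, and 3 higher and 0 lower in 18-month kidney. For sex it gave 4 higher and 7 lower in 12-week liver, 4 lower in 18-month liver, 1 lower in 12-week kidney, and 3 higher and 3 lower in 18-month kidney. For castrated males against females it gave 0 higher and 1 lower in 12-week liver, 1 higher and 3 lower in 18-month liver, 0 higher in 12-week kidney, and 4 higher and 1 lower in 18-month kidney. These shifts follow from fewer genes passing, or from untested genes entering. The median over members changed sign with scaling in 18-month liver for castration (0.02 from means, -0.10 centred, -0.11 by the authors' folds) and for sex (0.20 from means, -0.01 by the folds), and in 18-month kidney for sex (0.10, -0.01 centred, -0.01 by the folds).

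No paired analysis was possible because the columns used here are group means that carry no replicate numbers. Leaving out each library in turn was not run for the same reason, so whether 1 library decides a value is unknown. Depth per library is unknown. At 12 weeks a gene was tested in 1 comparison, so counts there are lower bounds.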

Other observations

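Acute phase genes, a liver list of 24 kept beside the complement and clotting genes, were also called after castration. At 12 weeks 11 were listed with a test, of which 3 rose (Orm3, Lcn2 and Fgl1) and 4 fell (Saa4, Orm1, Crp and Cp), against 20.2% and 21.5% of all genes so tested. At 18 months 5 of 24 rose (Orm3, Lbp, Lcn2, Socs3 and Fgl1) and 0 fell by the authors' DESeq2 test, against 1.08% and 1.01% of all genes. At an unadjusted p under 0.05 of that test 12 were higher and 0 lower, against 5.08% and 3.76%. The difference between the ages was not tested. Lcn2, which binds bacterial iron carriers, had 18-month liver means of 6.32 in ShamM, 49.6 in CasM and 120 in ShamF. Fgl1, a fibrinogen-like protein secreted by hepatocytes, rose from 230 to 483 FPKM at 12 weeks and from 256 to 848 at 18 months, whereas none of Fga, Fgb and Fgg was called higher in liver at either age. The summed means of the 24 genes in 18-month liver were 11663 in ShamM, 20639 in CasM and 19860 in ShamF.

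In kidney, other genes of the cascades changed after castration. Plat, tissue plasminogen activator, rose from 23.2 to 30.8 FPKM at 12 weeks and from 22.7 to 50.7 at 18 months. Serpinf2, the plasmin inhibitor, fell at 18 months from 204 to 61.0, with 39.0 in females. Hrg fell from 5.06 to 0.471 FPKM at 12 weeks and from 8.76 to 1.41 at 18 months. C3 rose at 18 months from 12.7 to 37.0, and C7 fell from 14.1 to 5.27.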
